A study of Mus musculus with 34 samples.

Results

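The ligands, receptors, latent binding proteins, antagonists, SMADs and target genes of transforming growth factor beta (TGF-beta) and bone morphogenetic protein (BMP) signalling were followed by high-throughput RNA sequencing (HTS) in cultured osteosarcoma cells. The list held 37 genes, chosen by symbol with earlier results of these data known. Of these, 36 had a value among the 16576 genes of the culture table. All 36 were among the 16562 genes tested. The remaining member, Id1, was not analysed here. All cultures came from 1 engineered line, MOSJ-Dkk-1. These mouse sarcoma cells, of bone and cartilage lineage, received a lentivirus whose viral (CMV) promoter drives steady production of human Dkk-1, a secreted Wnt antagonist. The cultures were given DkkMo, a vivo morpholino directed against the Dkk-1 transcript, scrMo, its control with mismatched bases, or no morpholino (NT). Log phase cultures were seeded at 500 cells per cm2 and grown for 6 days with fresh medium every 2 days. Cultures under nutritional stress were started in the same way and then held at confluence for 48 h, with 4 days without a change of medium, so that confluence and depleted medium cannot be told apart. Morpholino was given at 5 µM the day after seeding, although the study's text also names a higher dose in 1 place. The 6 groups are therefore log phase NT, log phase scrMo, log phase DkkMo, and the same 3 treatments under nutritional stress, each with 3 libraries.

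TGF-beta is secreted in a latent complex that is held in the extracellular matrix by latent TGF-beta binding proteins. Released TGF-beta and activin signal through pairs of type II and type I receptors to Smad2 and Smad3, whereas BMPs signal to Smad1 and Smad5, and both branches share Smad4. Smad6, Smad7, the decoy receptor Bambi and secreted proteins such as gremlin and follistatin restrain the pathway, and several of these inhibitors are themselves targets of it. In bone, BMPs drive osteoblast and chondrocyte differentiation, and TGF-beta stored in the matrix couples bone resorption to formation.

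Between 25.9 and 44.8 megareads per library fell on all genes tested together, and the NT libraries were on average the deeper ones. The labels do not say that the libraries of a group were separate cultures, so that p values measure only the spread between these samples. For the NT group under nutritional stress, the titles of 2 libraries repeat 1 replicate number. Their reads differed by a chi-square of 6.28 per degree of freedom, against 3.03 to 34.8 for all pairs within groups, and they were kept as 2 libraries. The Dkk-1 transgene is human and a morpholino blocks translation, so that mouse reads give no check of the knockdown. Of 8 osteoblast lineage markers, 6 had a value: Runx2, Col1a1, Spp1 and Sparc were at 1475 normalised counts or more in every culture, whereas Alpl and Bglap reached at most 43.9. Of 5 chondrocyte markers, Sox9 lay between 4523 and 9248 and Col2a1 between 1.00 and 26.8 normalised counts, and the other 3 were not analysed here. Among markers of other cells, Ptprc (at most 20.3) and Krt8 (at most 22.8) were near the floor in all 18 cultures. The macrophage marker Cd68 was not, with leukocyte marker sums of 408 to 422 normalised counts in log phase NT and 1306 to 1512 under nutritional stress NT. Pecam1 lay between 269 and 426. In bulk cultures, fewer cells of a kind and less RNA per cell cannot be told apart. Among the log phase DkkMo libraries, replicate 2 stood apart from the other two in several members, and several of these values are given with and without it.

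The promoters of 5 members on which the results turn are printed from RefSeq (GRCm38.p6), each from 250 bases before to 50 bases after an annotated start, 5′ to 3′ on the gene's strand. They were chosen because these genes showed a fall over 1.5-fold with nutritional stress in all 3 treatments (Ltbp2, Tgfbi), a rise in all 3 treatments (Tgfbr1), or a response to DkkMo that differed between the 2 culture conditions (Smad6, Id3). Capitals mark matches, on either strand, to the SMAD-binding core CAGAC, which reads as GTCTG from the opposite strand, the palindrome GTCTAGAC or the BMP-type element GGCGCC. The windows are Ltbp2 at chr12:84876442-84876741 (minus strand), Tgfbi at chr13:56609336-56609635 (plus strand), Tgfbr1 at chr4:47352972-47353271 (plus strand), Smad6 at chr9:64022010-64022309 (minus strand) and Id3 at chr4:136143572-136143871 (plus strand).
Ltbp2: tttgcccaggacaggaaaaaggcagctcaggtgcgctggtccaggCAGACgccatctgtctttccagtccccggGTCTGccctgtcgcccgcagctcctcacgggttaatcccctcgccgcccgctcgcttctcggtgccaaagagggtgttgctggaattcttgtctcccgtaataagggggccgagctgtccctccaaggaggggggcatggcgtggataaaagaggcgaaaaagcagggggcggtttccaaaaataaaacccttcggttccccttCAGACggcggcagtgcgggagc
Tgfbi: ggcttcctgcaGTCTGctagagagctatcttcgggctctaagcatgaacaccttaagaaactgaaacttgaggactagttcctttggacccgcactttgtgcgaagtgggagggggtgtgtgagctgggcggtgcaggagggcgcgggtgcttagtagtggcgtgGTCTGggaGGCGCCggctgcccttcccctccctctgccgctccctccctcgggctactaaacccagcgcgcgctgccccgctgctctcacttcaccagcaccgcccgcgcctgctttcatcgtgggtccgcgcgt
Tgfbr1: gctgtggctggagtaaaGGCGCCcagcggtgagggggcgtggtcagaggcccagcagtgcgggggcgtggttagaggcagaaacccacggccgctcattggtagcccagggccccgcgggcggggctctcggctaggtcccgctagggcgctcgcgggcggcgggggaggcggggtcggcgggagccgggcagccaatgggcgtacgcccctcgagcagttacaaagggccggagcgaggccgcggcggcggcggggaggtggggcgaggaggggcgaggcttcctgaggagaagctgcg
Smad6: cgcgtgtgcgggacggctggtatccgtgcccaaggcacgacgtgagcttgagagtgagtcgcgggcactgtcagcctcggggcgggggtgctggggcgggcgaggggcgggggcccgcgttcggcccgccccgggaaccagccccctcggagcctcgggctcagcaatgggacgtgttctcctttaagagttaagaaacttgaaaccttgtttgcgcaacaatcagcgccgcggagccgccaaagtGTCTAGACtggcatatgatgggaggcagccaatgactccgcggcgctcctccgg
Id3: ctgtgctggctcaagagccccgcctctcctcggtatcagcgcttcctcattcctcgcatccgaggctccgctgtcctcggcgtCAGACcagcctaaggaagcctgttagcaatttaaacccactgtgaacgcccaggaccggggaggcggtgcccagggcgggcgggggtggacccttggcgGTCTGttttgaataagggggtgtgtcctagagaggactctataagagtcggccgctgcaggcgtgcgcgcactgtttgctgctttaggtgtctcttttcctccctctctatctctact

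The Ltbp2 window held CAGAC at 3 places, with first bases at -205, -176 and 28 relative to the start, and the Tgfbi window held it at -239 and -85 beside GGCGCC at -77. Id3 held CAGAC at -167 and -68, Tgfbr1 held GGCGCC at -233, and Smad6 held GTCTAGAC at -4. Of the 36 members, 27 had promoters in the RefSeq table, 37 promoters in all. CAGAC was as common in them as elsewhere, in 48.6% of the 37 and 49.6% of all 32851 promoters. GGCGCC was present in 10 of 37 (27%) against 11.9% of all promoters, and TGANTCA, the AP-1 element, in 2.7% against 7.81%. GTCTAGAC occurred in 0.213% of all promoters, and Smad6 was the 1 member to hold it. None of these motifs contains another. A match is a description of these letters and not a bound site.

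Per kilobase of exon, members with secreted or matrix-bound products were the most abundant in log phase NT cultures. There Ltbp3, a latent TGF-beta binding protein, had 3016 ± 158 normalised counts per kilobase (SD, n = 3), Tgfbi, a matrix protein induced by TGF-beta, had 2286 ± 414, Fstl1, a secreted glycoprotein related to follistatin, 2206 ± 279, and Grem1, a secreted BMP antagonist, 2025 ± 280. The levels of Tgfbi, Fstl1 and Grem1 did not differ from each other beyond their spread. Tgif1, a transcriptional repressor, followed at 1586 ± 11.3, then Ltbp2 at 1207 ± 127 and Tgfbr3 at 1070 ± 90.3. The lowest were Tgfb2 (5.50 ± 0.485), Fst (5.66 ± 1.56) and Bmp4 (10.6 ± 1.45), of which the first 2 could not be ordered. Under nutritional stress NT, Ltbp3 remained first at 2776 ± 40.8 and was followed by members with intracellular products, Tgif1 at 1811 ± 33.6, Smad4, the shared SMAD, at 1265 ± 51.1 and the inhibitory Smad7 at 981 ± 75.3 per kilobase. Lower in the order stood the type I receptor Tgfbr1 at 789 ± 52.3, Ltbp2 at 75.9 ± 7.36 and Bmp2 at 3.91 ± 1.23.

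The first comparison asked how these genes differed between confluent, starved cultures and cultures in the log phase of growth. Ltbp2, Tgfbi, Grem1, Fstl1, Ltbp1 and Ltbp4, whose products are secreted or bound to the matrix, were lower under nutritional stress in every treatment. Other secreted members did not share this direction, as Inhba, Fstl3 and Tgfb2 rose in NT cultures. The receptors Tgfbr1 and Acvr2a, the repressor Skil and the target Id2 were higher in every treatment. The receptors did not share 1 direction, as Acvr1, Tgfbr2 and Tgfbr3 were lower in every treatment. In NT cultures 13 members rose and 14 fell at an adjusted p below 0.05 (limma on the deposited log2 values, Benjamini-Hochberg over 16562 genes), against 31.5% and 34.1% of all genes. These 13 and 14 correspond to 36.1% and 38.9% of the members, close to the share of all genes. A change over 1.5-fold on the deposited scale was passed by 15 members, 5 upward and 10 downward, where 18.1% of all genes did so. In scrMo-treated cultures 11 rose and 15 fell (28.0% and 30.8% of all genes), 11 of them over 1.5-fold (10.7%). In DkkMo-treated cultures 12 rose and 18 fell (30.4% and 35.2%), 16 of them over 1.5-fold (16.5%). The median change of the members was -0.04, -0.08 and -0.12 in NT, scrMo and DkkMo cultures, and that of all genes was -0.0136, -0.00605 and -0.0113.

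Cell cycle genes moved with this comparison: all 15 with a value fell in each treatment, with medians of -2.21 (NT), -1.72 (scrMo) and -2.22 (DkkMo). Their summed level was 28037 to 33751 normalised counts in log phase NT and 4500 to 4571 under nutritional stress NT. Interferon-stimulated genes fell in 9 of 9 cases in NT (median -1.89), while 4 fell and 1 rose with scrMo (median -0.08) and 8 fell and 1 rose with DkkMo (median -0.80). Osteoblast lineage markers summed to 216000 to 246120 in log phase NT and 73338 to 79712 under stress NT. Most of this was Spp1, at 49250 to 214500 over all cultures. Of the 6 markers with a value, 2 rose and 3 fell in NT. The leukocyte marker sums given above, mostly Cd68, were higher under stress. Of 5 contractile genes with a value, 3 rose and 2 fell in NT (median 0.28), and the mitochondrial ribosomal RNAs rose by 2.58 at the median with scrMo. The library medians shifted under nutritional stress by -0.158 in NT, -0.0655 in scrMo and -0.165 in DkkMo cultures on the log2 scale. The median changes of all genes were smaller, at -0.0136, -0.00605 and -0.0113. Changes as small as the shifts of library medians are to be read beside both. The part of these in the members' changes was not tested.

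**Figure D1:**
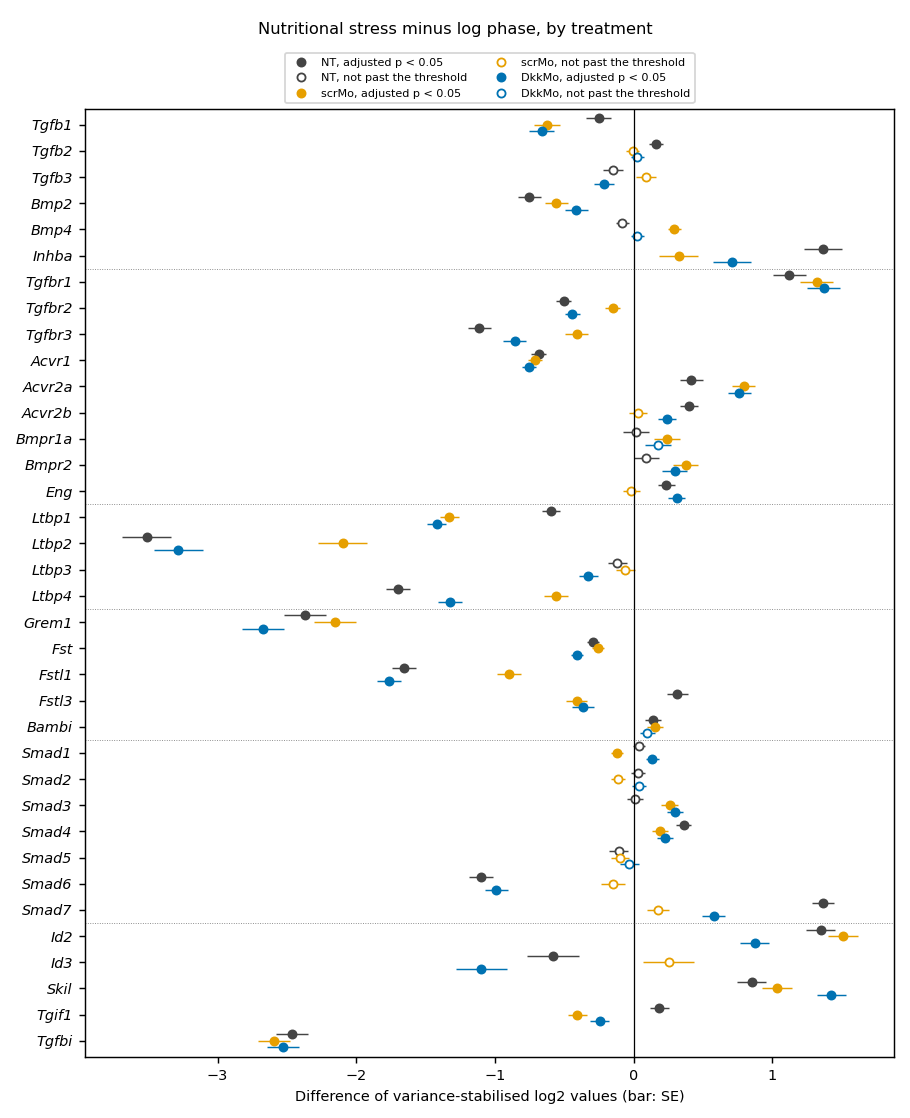
Difference of variance-stabilised log2 values between nutritional stress and log phase for the 36 members, by role from ligands (top) to targets and repressors (bottom), in NT (grey), scrMo (orange) and DkkMo (blue) cultures. Points are differences of group means (n = 3 against 3), bars are standard errors, and filled points have an adjusted p below 0.05. Ltbp2, Tgfbi and Grem1 lie farthest to the left in NT cultures, at -3.51, -2.46 and -2.37.

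The second comparison, DkkMo against scrMo, asked what the morpholino against Dkk-1 did beyond the morpholino control. In log phase, DkkMo-treated cultures had higher levels of Id3, Ltbp2, Smad6, Ltbp4, Id2, Tgfbr3 and Fstl1, and lower levels of Smad1 and Smad2, by small amounts. In total 13 members rose and 2 fell, where 14.3% and 9.20% of all genes rose and fell. The 13 are 36.1% of the members. On the deposited scale, which compresses low counts, changes over 1.5-fold were limited to Ltbp2 and Id3, where 1.97% of all genes passed that size. Ratios of normalised counts were larger for members at low counts, such as Bmp4 and Tgfb2. The members' median change was 0.07, and that of all genes 0.00483. Of the 15 calls, 10 remained in number without log phase DkkMo replicate 2, and 5 (Bmp4, Ltbp2, Ltbp4, Smad6 and Id3) when the model held only the 2 groups compared.

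Under nutritional stress the same comparison gave 3 members that rose (Tgfb2, Eng and Smad7) and 3 that fell (Ltbp4, Fstl1 and Smad6), beside 9.97% and 10.9% of all genes. That is 8.33% of the members in each direction. The count of 6 depended on the model: it was 14 with only the compared groups in the model and 11 with array weights. None of the 36 passed 1.5-fold on the deposited scale, as against 1.00% of all genes, and the members' median change was 0.00136. Ratios of normalised counts were larger for members at low counts, such as Eng and Tgfb2. Without stress scrMo replicate 2 the count was 2, Eng and Fstl1. The response to DkkMo itself differed between the culture conditions (interaction term of the same model) for 13 members, 3 with a more positive response under stress and 10 with a more negative one (8.93% and 13.2% of all genes), and 6 of these differences exceeded 1.5-fold (3.70%).

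In log phase the cell cycle list moved in the same comparison, with 15 of 15 genes higher in DkkMo-treated than in scrMo-treated cultures (median 0.63) and summed levels of 30339 to 43274 against 18761 to 22690 normalised counts. Interferon-stimulated genes were higher too, 8 of 9 with a median of 0.76, and both mitochondrial ribosomal RNAs were lower, with a median of -1.21. The osteoblast lineage markers summed to 165670 to 185240 in DkkMo-treated and 106470 to 140540 in scrMo-treated cultures. Under nutritional stress 2 of 15 cell cycle genes rose (median 0.05), 3 of 9 interferon-stimulated genes fell and both mitochondrial ribosomal RNAs fell by 3.55 at the median. The osteoblast lineage sums were then in the opposite order, 59827 to 61113 with DkkMo and 77220 to 81157 with scrMo, with 2 of 6 markers lower and 1 higher. Of the contractile genes, 2 of 5 rose in log phase (median 0.18) and 1 of 5 under stress (median 0.07). The part of these lists in the members' changes was not tested.

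The third comparison set each morpholino against no morpholino and shares its libraries with the other two. In log phase, scrMo-treated cultures had lower Ltbp2, Tgfbi, Ltbp4, Grem1 and Tgfbr3 than NT cultures, all by more than 1.5-fold, and higher Smad7 and Inhba. There 5 members rose and 17 fell, beside 11.8% and 14.6% of all genes, and the 5 changes over 1.5-fold stand beside 2.45% of all genes. Under nutritional stress 5 rose and 14 fell (22.1% and 24.7% of all genes). Of these, 4, Tgfbi, Ltbp1, Smad7 and Inhba, fell by over 1.5-fold on the deposited scale (4.43%). DkkMo-treated against NT cultures gave 2 members that rose and 6 that fell in log phase (5.36% and 4.46% of all genes). Of these, Tgfbi alone passed 1.5-fold on the deposited scale (0.827%). Under nutritional stress 2 rose and 12 fell (19.0% and 22.7%), and Tgfbi and Ltbp1 passed 1.5-fold on that scale (2.66%). The members' median changes were -0.15 and -0.08 for scrMo against NT and -0.06 and -0.05 for DkkMo against NT, in log phase and under stress. The all-gene medians of these 4 comparisons lay between -0.00748 and 0.00529. Over the 10 comparisons the members had 180 calls. Of these, 40, all of changes under 1.5-fold on the deposited scale, were lost when at least 1 library was left out. A lost call was the log phase rise of Inhba with scrMo. Its difference was 0.33 without NT replicate 1, 0.46 without NT replicate 3, 0.38 without scrMo replicate 2 and 0.25 without scrMo replicate 3.

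Beside the scrMo and NT difference in log phase, all 15 cell cycle genes (median -0.45) and all 9 interferon-stimulated genes (median -1.33) were lower in scrMo-treated cultures, and the mitochondrial ribosomal RNAs were higher by 1.94 at the median. Of the 6 osteoblast lineage markers, 3 fell, each by over 1.5-fold, and their sums were 106470 to 140540 with scrMo against 216000 to 246120 in NT. Under stress 8 of 9 interferon-stimulated genes were higher with scrMo (median 0.43). Under nutritional stress the mitochondrial RNAs were higher by 4.42, summing to 539800 to 641020 normalised counts with scrMo and 24857 to 28584 without morpholino. In DkkMo against NT cultures the mitochondrial ribosomal RNAs were higher by 0.72 in log phase and 0.88 under stress, and 9 of 9 interferon-stimulated genes fell in log phase (median -0.61), while 6 rose and 1 fell under stress (median 0.31). Whether they bear on the members' values was not tested.

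**Figure D2:**
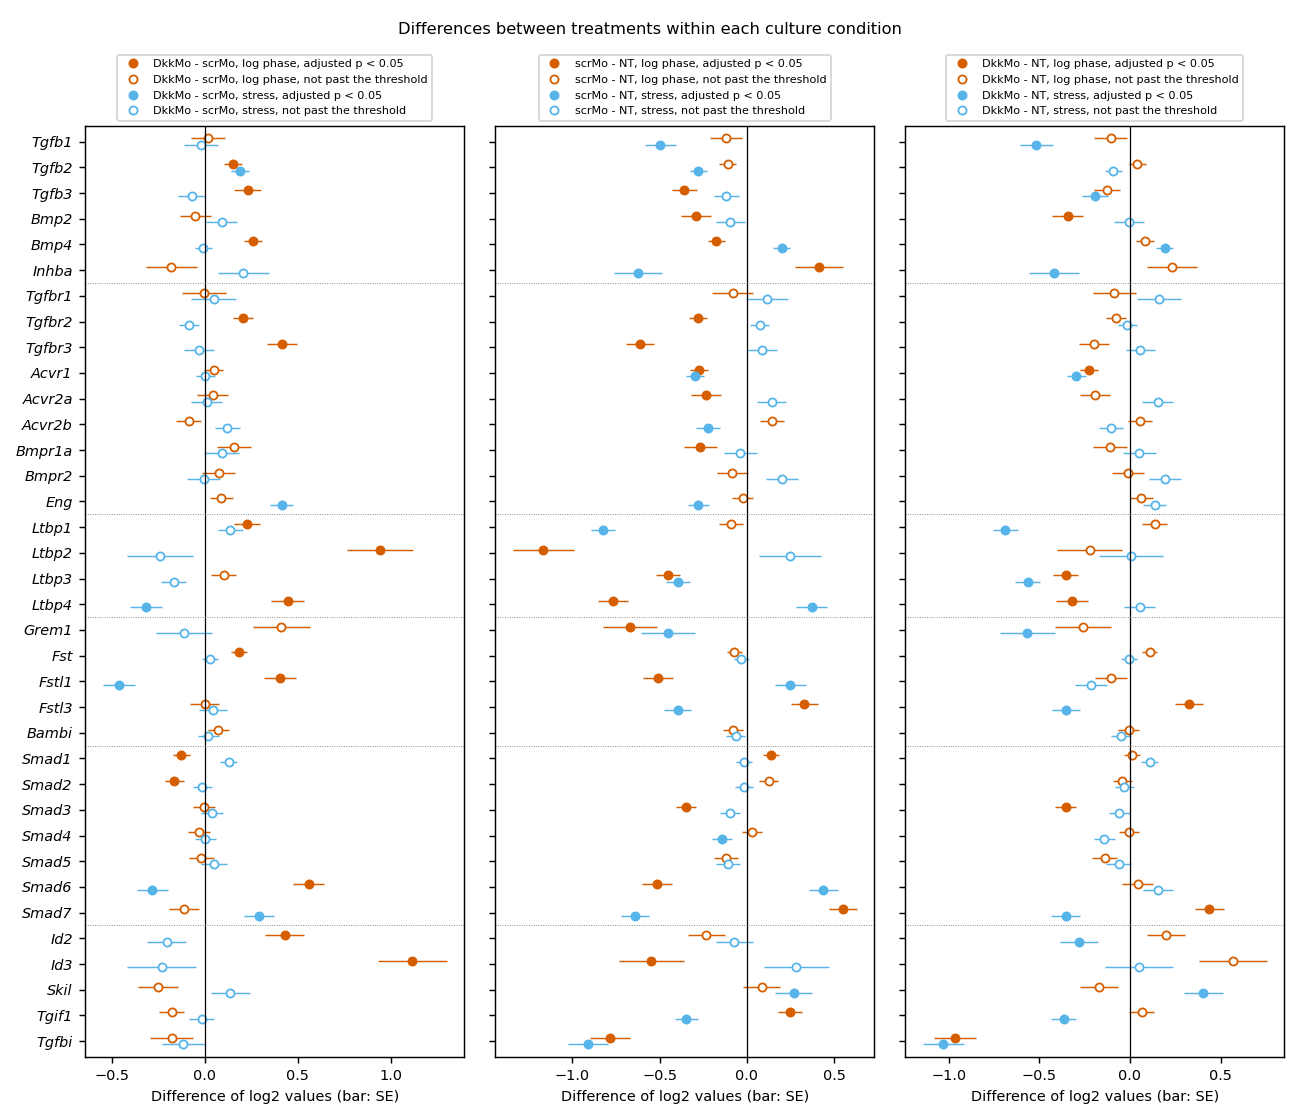
Differences of log2 values between treatments within log phase (orange-red) and nutritional stress (light blue) for the 36 members: DkkMo minus scrMo (left), scrMo minus NT (middle) and DkkMo minus NT (right). Points are differences of group means (n = 3 against 3), bars are standard errors, and filled points have an adjusted p below 0.05. Ltbp2 and Id3 lie farthest to the right in the log phase points of the left panel, at 0.94 and 1.12, and Tgfbi is left of 0 in both conditions of the middle and right panels.

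Among the ligands, Inhba, which encodes the activin A subunit, rose most with nutritional stress. Log phase NT cultures had 1358, 1679 and 1674 normalised counts of Inhba and stressed NT cultures 4759, 4014 and 4645. All stressed values lay above all log phase values, a log2 change of 1.36 ± 0.14 (SE, adjusted p = 4.61e-08, limma), or 2.85-fold in normalised counts. The scrMo-treated cultures had 1590.1, 2296 and 2795 in log phase and 2913, 2772 and 2701 under stress, and these overlapped. Their rise of 0.32 was called, but the call was lost without any 1 of these libraries other than log phase scrMo replicate 3. Without log phase scrMo replicate 1 the rise was 0.13. DkkMo-treated cultures had 1518, 1886 and 2327 and 3154, 3344 and 3301, which did not overlap and differed by 0.71 ± 0.14 (adjusted p = 0.000152). Under stress both morpholinos lay below NT, with log2 differences of -0.62 ± 0.14 for scrMo (adjusted p = 0.00107) and -0.42 ± 0.14 for DkkMo (adjusted p = 0.0199). The DkkMo call was lost without stress DkkMo replicate 1 (-0.40), stress NT replicate 1 (-0.37) or stress NT replicate 3 (-0.39). DkkMo and scrMo did not differ past the threshold in Inhba in either condition.

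Tgfb1, the main TGF-beta ligand, was highest in log phase. Its normalised counts were 3574, 3411 and 3695 in log phase NT, 4015, 3027 and 2812 with scrMo and 3543, 3183 and 3149.7 with DkkMo, with overlap among the 3 groups. Under stress they were 2805, 3026 and 3011 in NT, 1972, 2114 and 1945 with scrMo and 2081, 1743 and 2120.2 with DkkMo. Every stressed value of a treatment lay below its log phase values, and the log2 change was -0.25 ± 0.09 in NT (adjusted p = 0.021), -0.62 ± 0.09 with scrMo (adjusted p = 9.02e-06) and -0.66 ± 0.09 with DkkMo (adjusted p = 3.09e-06). The NT call was lost without log phase NT replicate 3 (-0.23) or stress NT replicate 1 (-0.22). Under stress the differences of scrMo and DkkMo from NT were -0.50 and -0.52, while DkkMo and scrMo differed by -0.02 ± 0.09 (adjusted p = 0.9).

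Tgfb2 and Tgfb3 encode the other TGF-beta isoforms. Tgfb2 was read at low counts, 24.5, 23.6 and 18 with scrMo and 31, 41.7 and 35.6 with DkkMo in log phase, and 28, 17.4 and 19.4 and 47.7, 32.7 and 37.3 under stress. DkkMo-treated cultures were the higher in both conditions without overlap, by 0.15 ± 0.05 (adjusted p = 0.0287) and 0.19 ± 0.05 (adjusted p = 0.0094), or 1.64- and 1.81-fold in normalised counts. The log phase call was lost without replicate 2 (0.13) or 3 (0.15) of DkkMo or replicate 2 (0.16) or 3 (0.13) of scrMo, and the stress call without DkkMo replicate 1 (0.15) or scrMo replicate 2 (0.16). The deposited scale compresses such low counts, which is why the log2 value is small. NT cultures had 29.3, 31.3 and 34.8 Tgfb2 counts in log phase and 44.5, 55 and 49.3 under stress. For Tgfb3 the log phase counts were 521, 555 and 596 in NT, 374, 385 and 391 with scrMo and 465, 599 and 417 with DkkMo. Log phase scrMo cultures were thus the lowest, at a difference of -0.36 ± 0.07 from NT (adjusted p = 0.00119), and were exceeded by DkkMo cultures by 0.23 ± 0.07 (adjusted p = 0.0273). The latter call was lost without DkkMo replicate 2 (0.13), scrMo replicate 1 (0.22) or scrMo replicate 2 (0.23). Under stress Tgfb3 counts were 453, 510.2 and 473 in NT, 454, 370.2 and 446 with scrMo and 389, 383 and 401 with DkkMo, and the last 2 groups overlapped. Of the exon bases of Tgfb3, 420 are shared with transcripts of the opposite strand, and whether counting used strand is not given in the sources used here.

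Bmp2, which induces osteoblast differentiation, was much lower under nutritional stress. Its log phase counts were 86.1, 89 and 149 in NT, 51, 72 and 55.1 with scrMo and 35.5, 80.4 and 45.8 with DkkMo, so that both morpholinos lay below NT. Without log phase NT replicate 3 these differences, -0.29 for scrMo and -0.34 for DkkMo, were -0.19 and -0.24 and no longer passed, and the DkkMo call was also lost without DkkMo replicate 1 (-0.27). Under stress they were 11.4, 11.4 and 19 in NT, 8.91, 4.58 and 12.6 with scrMo and 14.2, 14.3 and 11.6 with DkkMo, below every log phase culture. The stressed NT cultures were 7.76-fold lower in normalised counts (-0.75 ± 0.08 on the deposited scale, adjusted p = 1.81e-07), the scrMo cultures 6.82-fold (adjusted p = 1.34e-05) and the DkkMo cultures 4.03-fold (adjusted p = 0.000245). Bmp4, a second BMP ligand, was also read at few counts and did not follow Bmp2. In log phase it was read at 27.5, 21.4 and 22.6 counts in NT, 8.15, 13.5 and 13 with scrMo and 32.2, 36.7 and 25.4 with DkkMo. Under stress the counts were 18.3, 18.7 and 15.2, 42, 28.4 and 34 and 29.4, 32.7 and 39.6. Log phase scrMo cultures were the lowest for Bmp4, and DkkMo cultures exceeded them 2.72-fold in normalised counts (0.26 ± 0.05, adjusted p = 0.000579), a difference that was not seen under stress (-0.01 ± 0.05, adjusted p = 0.931). The interaction term for Bmp4 was -0.27 ± 0.07 (adjusted p = 0.00755).

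Of the receptors, Tgfbr1, the type I receptor for TGF-beta, showed the largest rise. Its log phase counts were 2113, 2203 and 2315 in NT, 1524, 2358 and 2454 with scrMo and 1715, 2159 and 2367 with DkkMo. The stressed counts were 5382, 4759.6 and 5314, 5586, 5588 and 5605 and 5268, 6012 and 6107. All 9 stressed cultures lay above all 9 log phase cultures, by 1.12 ± 0.12 in NT, 1.32 ± 0.12 with scrMo and 1.37 ± 0.12 with DkkMo (adjusted p = 8.88e-08, 2e-08 and 6.51e-09), or 2.33- to 2.79-fold in normalised counts. No comparison between treatments passed the threshold for Tgfbr1.

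The 2 other TGF-beta receptors moved the opposite way. Tgfbr2, the type II receptor that activates Tgfbr1, had 1485, 1567 and 1501 counts in log phase NT, 1199, 1217 and 1191 with scrMo and 1331, 1508 and 1442 with DkkMo. Under stress it had 1044, 907 and 1028, 1003, 1082 and 1088 and 974, 927 and 1039. The change with stress was -0.50 ± 0.05 in NT (adjusted p = 9.99e-08), -0.15 ± 0.05 with scrMo (adjusted p = 0.0223) and -0.44 ± 0.05 with DkkMo (adjusted p = 6.51e-07), with no overlap. The scrMo call was lost without log phase scrMo replicate 2 (-0.14) or stress scrMo replicate 1 (-0.12). Tgfbr3, or betaglycan, a co-receptor that presents TGF-beta, was read at 6367, 7113 and 7534, 4367, 4098 and 4985 and 5201, 6608 and 6454 in log phase NT, scrMo and DkkMo cultures. Its stressed counts were 3301, 2906 and 3036, 3181, 3397 and 3299.5 and 3177, 3174 and 3293, a narrow range whatever the treatment. Tgfbr3 changed by -1.11 ± 0.08 in NT (adjusted p = 5.29e-10), -0.41 ± 0.08 with scrMo and -0.86 ± 0.08 with DkkMo. In log phase scrMo cultures were below both other groups with no overlap, differing from NT by -0.61 ± 0.08 (adjusted p = 2.04e-05), and DkkMo exceeded scrMo by 0.42 ± 0.08 (adjusted p = 0.00106).

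Acvr1, a type I receptor for BMPs, was lower under stress by almost the same amount in each treatment. Counts were 2603, 2537 and 2557 in log phase NT, 2118, 1891 and 2225 with scrMo and 2218, 2086 and 2158 with DkkMo. They were 1537, 1477 and 1461, 1116, 1153 and 1225 and 1205, 1144 and 1150.3 under stress. The changes were -0.69 ± 0.05, -0.71 ± 0.05 and -0.75 ± 0.05 (adjusted p = 6.3e-10, 1.04e-09 and 2.01e-10). Both morpholinos lay below NT in both conditions, with log2 differences from -0.30 to -0.23, and Acvr1 differed by 0.05 ± 0.05 and 0.00 ± 0.05 between DkkMo and scrMo in log phase and under stress.

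Acvr2a, the type II activin receptor, rose instead. It was read at 741, 830.2 and 787 counts in log phase NT, 499, 703 and 706 with scrMo and 588, 648 and 739 with DkkMo. Stressed cultures had 1222, 1083 and 1102, 1351, 1221 and 1269 and 1183, 1398 and 1297. These lay above every log phase culture, by 0.42 ± 0.08 in NT, 0.79 ± 0.08 with scrMo and 0.76 ± 0.08 with DkkMo (adjusted p = 0.000229, 1.68e-07 and 1.75e-07). Of its exon bases, 446 are shared with Orc4 on the opposite strand. Its paralogue Acvr2b was read at 71.9, 77.6 and 76.3 in log phase NT and 141, 155 and 160.3 under stress NT, 0.40 ± 0.07 higher (adjusted p = 3.01e-05). With scrMo Acvr2b had 67.3, 110.2 and 126 and 98, 114 and 105, which overlapped, and with DkkMo 68.7, 89.4 and 95.6 and 133, 133 and 122, a rise of 0.24 ± 0.07 (adjusted p = 0.00373).

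The main BMP receptors were steadier. Bmpr1a, the type I receptor, had 3065, 3226 and 3334, 2169, 2706 and 3055 and 2449, 3246 and 3229 counts in log phase NT, scrMo and DkkMo cultures and 3307, 3133 and 3287, 3212, 3059 and 3183 and 3319.6, 3521 and 3279.9 under stress. Bmpr2, the type II receptor, had 2174, 2263 and 2214, 1751, 2202 and 2314 and 1814, 2402 and 2435 in log phase and 2563, 2250.2 and 2335, 2650.5, 2837 and 2849 and 2648, 2858 and 2789 under stress. The largest called change of either was the 0.38 ± 0.09 rise of Bmpr2 with stress in scrMo cultures (adjusted p = 0.00132). Neither differed past the threshold between DkkMo and scrMo.

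Eng, or endoglin, a TGF-beta and BMP co-receptor best known in endothelium, was the receptor gene that differed most between DkkMo and scrMo under stress. Stressed scrMo cultures had 78.9, 90.7 and 69 counts and stressed DkkMo cultures 159, 152 and 173, with NT between them at 131, 137 and 124. DkkMo exceeded scrMo without overlap, by 0.41 ± 0.06 (adjusted p = 9.01e-05, limma) or 2.03-fold in normalised counts. Against NT under stress, neither Eng nor any other receptor was called higher with DkkMo. In log phase the counts of Eng were 88.8, 77.6 and 91.4 in NT, 97.9, 95.6 and 56.1 with scrMo and 102, 100.3 and 88.5 with DkkMo, which overlapped. The response to DkkMo was more positive under stress by 0.33 ± 0.09 (adjusted p = 0.0115). The endothelial marker Pecam1 stayed within 269 to 426 normalised counts in all cultures.

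Of the latent TGF-beta binding proteins, Ltbp2 changed most. It had 8904, 9769.9 and 10971 counts in log phase NT, 5444, 2977 and 4645 with scrMo and 6516, 12005 and 7543 with DkkMo. Under stress it had 594, 579.7 and 690.4, 773, 863 and 716 and 614, 606 and 649. Ltbp2 was therefore far lower in every stressed culture than in any log phase culture, 15.9-fold in NT, 5.55-fold with scrMo and 13.9-fold with DkkMo in normalised counts. On the log2 scale this was -3.51 ± 0.18 (adjusted p = 2.6e-12), -2.10 ± 0.18 (adjusted p = 8.4e-09) and -3.28 ± 0.18 (adjusted p = 9.63e-12). In log phase scrMo cultures were below NT, with a difference of -1.17 ± 0.18 (adjusted p = 7.73e-05), and DkkMo cultures were above scrMo by 0.94 ± 0.18 (adjusted p = 0.000698). Log phase DkkMo replicate 2 had the highest Ltbp2 value of all, and without it the DkkMo increase over scrMo was 0.69. DkkMo and NT overlapped. Under stress the 2 morpholinos differed by -0.24 ± 0.18 (adjusted p = 0.371), and the interaction term was -1.19 ± 0.25 (adjusted p = 0.00213). An antisense transcript shares 764 exon bases with Ltbp2.

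Ltbp4 followed the same order at a lower level. Its counts were 4278, 4903 and 5140.4 in log phase NT, 3219, 2397 and 2494 with scrMo and 3953, 3925 and 3403 with DkkMo. The stressed counts were 1346, 1218 and 1271, 1649, 1812 and 1739 and 1306, 1246 and 1462. Among log phase cultures every scrMo value was below every DkkMo value, and under stress every scrMo value was above every DkkMo value. The differences were 0.44 ± 0.09 (adjusted p = 0.00109) and -0.32 ± 0.09 (adjusted p = 0.014), with an interaction of -0.76 ± 0.12 (adjusted p = 0.000261). The stress call was lost without DkkMo replicate 2 (-0.28) or scrMo replicate 2 (-0.29). With stress Ltbp4 changed by -1.70 ± 0.09 in NT (adjusted p = 3.94e-12), -0.56 ± 0.09 with scrMo and -1.32 ± 0.09 with DkkMo.

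Ltbp1 was lower with either morpholino than without under stress, by more than 1.5-fold. Log phase counts were 10316, 10545 and 10212 in NT, 10064, 8380.2 and 10867 with scrMo and 10632, 12108 and 11564 with DkkMo, and stressed counts 6853, 6689 and 6723, 3636, 3722 and 3729 and 4060.2, 4151 and 4055. With stress it changed by -0.60 ± 0.07 in NT (adjusted p = 2.45e-07), -1.33 ± 0.07 with scrMo (adjusted p = 1.1e-11) and -1.42 ± 0.07 with DkkMo (adjusted p = 2.14e-12). Stressed scrMo and DkkMo cultures differed from stressed NT by -0.82 ± 0.07 (adjusted p = 2.17e-08) and -0.69 ± 0.07 (adjusted p = 3.73e-07). Ltbp3, the most abundant member per kilobase, ranged from 16256 to 28948 counts over the 18 cultures. It was lower with either morpholino than in NT in both conditions, with differences of -0.45 and -0.40 for scrMo and -0.35 and -0.56 for DkkMo, and fell with stress past the threshold in DkkMo cultures alone (-0.33).

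**Figure D3:**
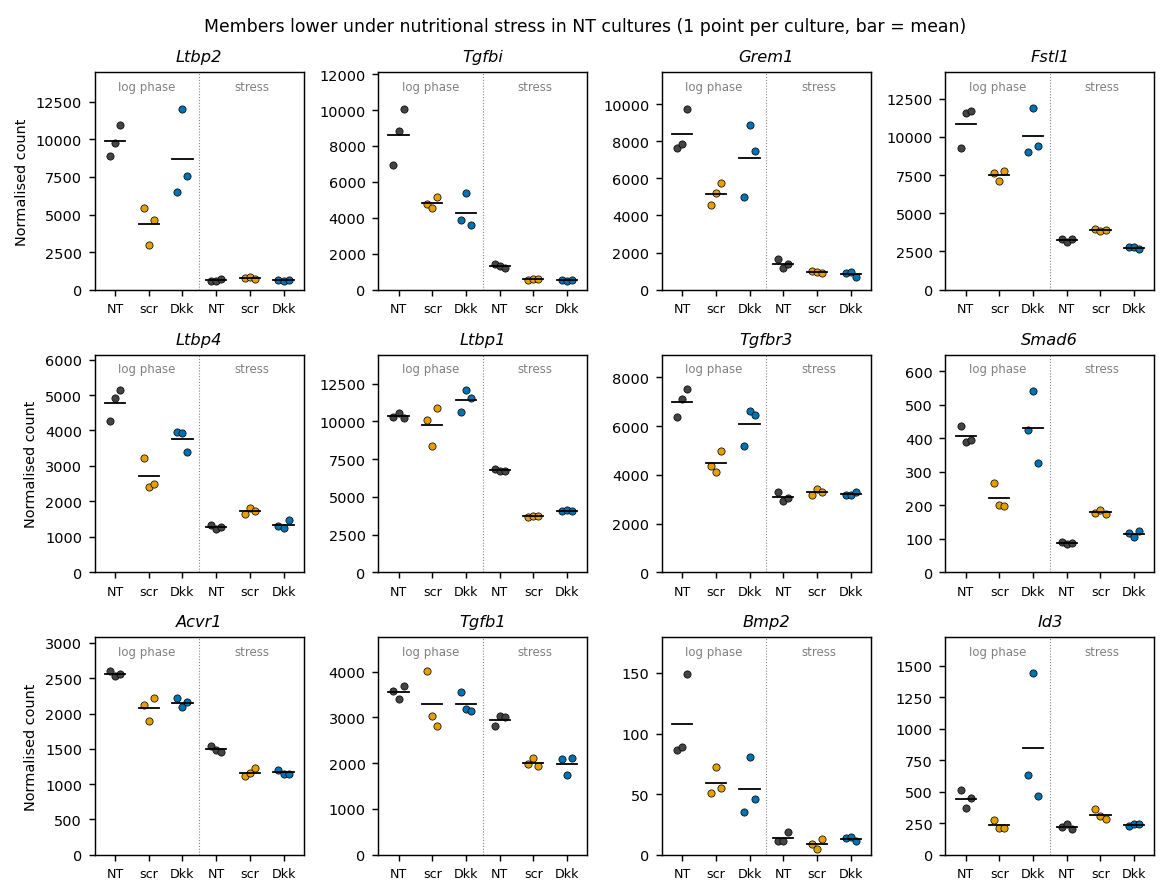
Normalised counts (linear axes from 0) of 12 members that were lower under nutritional stress than in log phase in NT cultures, 1 point per culture and a bar at the mean of each group (n = 3), for NT (grey), scrMo (orange) and DkkMo (blue). The Ltbp2 points run from 2977 to 12005 for log phase and from 579.7 to 863 for stressed cultures, and Id3 in log phase DkkMo cultures is spread from 470 to 1438.

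Among the antagonists, Grem1 was the most reduced under stress. Log phase counts of this BMP antagonist were 7608, 7856 and 9734 in NT, 4553, 5192 and 5759 with scrMo and 5012, 8884 and 7463 with DkkMo. Stressed counts were 1672, 1161 and 1387, 980.2, 947 and 917 and 904, 975 and 710.2, all below the lowest log phase culture. The log2 changes were -2.37 ± 0.15 in NT (adjusted p = 8.15e-11), -2.15 ± 0.15 with scrMo (adjusted p = 8.71e-10) and -2.67 ± 0.15 with DkkMo (adjusted p = 2.15e-11). Cultures given scrMo had less Grem1 than NT in log phase (-0.67 ± 0.15, adjusted p = 0.00298). DkkMo and scrMo cultures overlapped in log phase and differed by 0.41 ± 0.15 (adjusted p = 0.0589).

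Fstl1 had 9262, 11573 and 11691 counts in log phase NT, 7668, 7099 and 7741 with scrMo and 8978, 11913 and 9380.1 with DkkMo. Under stress it had 3294, 3118 and 3285, 3960.4, 3816 and 3906 and 2784, 2785 and 2669. As for Ltbp4, the order of the 2 morpholinos was opposite in the 2 conditions, and in neither did they overlap. DkkMo exceeded scrMo by 0.40 ± 0.09 in log phase (adjusted p = 0.00216) and the difference was -0.46 ± 0.09 under stress (adjusted p = 0.000781), an interaction of -0.87 ± 0.12 (adjusted p = 6.8e-05). The log phase difference was 0.28 without DkkMo replicate 2, the highest of its group. The change of Fstl1 with stress was -1.65 ± 0.09 in NT, -0.90 ± 0.09 with scrMo and -1.76 ± 0.09 with DkkMo (adjusted p = 4.88e-12, 5.46e-08 and 3.16e-12).

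The remaining antagonists changed by less than 1.5-fold on the deposited scale. Fst, follistatin, which binds activin, was read at only 4.58 to 36.6 counts, and stressed cultures were 3.92-fold (NT), 3.75-fold (scrMo) and 5.67-fold (DkkMo) lower in normalised counts. Fstl3, another activin-binding protein, ranged from 1522 to 2618 counts. It rose with stress in NT (0.31) and fell in scrMo (-0.41) and DkkMo cultures (-0.37). Of its exon bases, 1157 are shared with Prss57 on the opposite strand. Bambi, a decoy receptor, stayed between 92.2 and 167 counts and rose by 0.14 and 0.15 with stress in NT and scrMo cultures. The NT call of Bambi was lost without any 1 of log phase NT replicates 1 to 3 or stress NT replicate 1 (0.11 to 0.15), and the scrMo call without log phase scrMo replicate 3 or stress scrMo replicates 1 or 3 (0.12 to 0.14).

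Over the 18 cultures the SMADs that transduce signals varied less, in proportion, than the inhibitors Smad6 and Smad7. With stress in scrMo cultures, however, neither inhibitor passed the threshold, whereas Smad1, Smad3 and Smad4 did. Smad1 and Smad5, which carry BMP signals, ranged from 687 to 843 and from 2421 to 3102 counts over the 18 cultures, and Smad5 passed the threshold in none of the 10 comparisons. Smad2 and Smad3, which carry TGF-beta and activin signals, ranged from 1795 to 2272 and from 3468 to 5073. Smad3 was lower with either morpholino in log phase, with differences of -0.35 for scrMo and -0.35 for DkkMo. Smad3 rose with stress in scrMo cultures (mean counts 3824 to 4618) and DkkMo cultures (3803 to 4748). Smad4, the shared partner, lay between 3352 and 4893 and rose with stress by 0.36, 0.19 and 0.22 in NT, scrMo and DkkMo cultures. With stress Smad1 changed by -0.12 in scrMo and 0.13 in DkkMo cultures. The scrMo call was lost without log phase scrMo replicate 2 or 3 or stress scrMo replicate 1 or 2, and the DkkMo call without stress DkkMo replicate 2. In log phase Smad1 and Smad2 were lower with DkkMo than with scrMo, with differences of -0.13 and -0.17, and the Smad2 groups overlapped. Both calls were lost without replicate 1 or 2 of DkkMo or replicate 2 or 3 of scrMo, with differences of -0.13 to -0.10 for Smad1 and -0.16 to -0.12 for Smad2.

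Smad6, an inhibitor chiefly of BMP signalling, differed between the morpholinos in opposite directions in the 2 conditions. In log phase it had 435, 387 and 395 counts in NT, 265, 199 and 196 with scrMo and 425, 541 and 326 with DkkMo. Under stress it had 90, 83 and 86.3 in NT, 176, 185 and 175 with scrMo and 118, 104 and 122 with DkkMo. The scrMo cultures were the lowest group in log phase and the highest under stress, without overlap with the other groups in either. DkkMo exceeded scrMo 1.96-fold in normalised counts in log phase (0.56 ± 0.08, adjusted p = 0.000104) and lay 1.56-fold below it under stress (-0.28 ± 0.08, adjusted p = 0.0214). Without log phase DkkMo replicate 2, the highest of its group, the log phase difference was 0.44. The stress call was lost without DkkMo replicate 2 (-0.26), scrMo replicate 2 (-0.27) or scrMo replicate 3 (-0.29). The interaction term was -0.84 ± 0.12 (adjusted p = 6.6e-05). Smad6 was lower with stress in NT (-1.10 ± 0.08, adjusted p = 9.43e-10) and DkkMo cultures (-0.99 ± 0.08, adjusted p = 5.09e-09), and its change in scrMo cultures was -0.15 ± 0.08 (adjusted p = 0.143).

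Smad7, which inhibits both branches, moved the other way. Log phase counts were 1569, 1571 and 1499 in NT, 2619.7, 2148 and 2426 with scrMo and 2289.8, 1978 and 2317 with DkkMo. Stressed counts were 4071, 4744 and 4496, 3151, 2512 and 2577 and 3277, 3356 and 3585. NT cultures were the lowest group in log phase and the highest under stress. The rise with stress was 1.37 ± 0.08 in NT (adjusted p = 2.02e-11), 0.58 ± 0.08 with DkkMo (adjusted p = 3.5e-06) and 0.17 ± 0.08 with scrMo (adjusted p = 0.0688), and scrMo cultures of the 2 conditions overlapped. Against NT, scrMo raised Smad7 by 0.55 ± 0.08 in log phase (adjusted p = 5.09e-05) and lowered it under stress (-0.64 ± 0.08, adjusted p = 3.13e-06). Stressed DkkMo cultures were above stressed scrMo cultures by 0.29 ± 0.08 (adjusted p = 0.0141). This call was lost without DkkMo replicate 3 (0.25), scrMo replicate 2 (0.23) or scrMo replicate 3 (0.25).

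**Figure D4:**
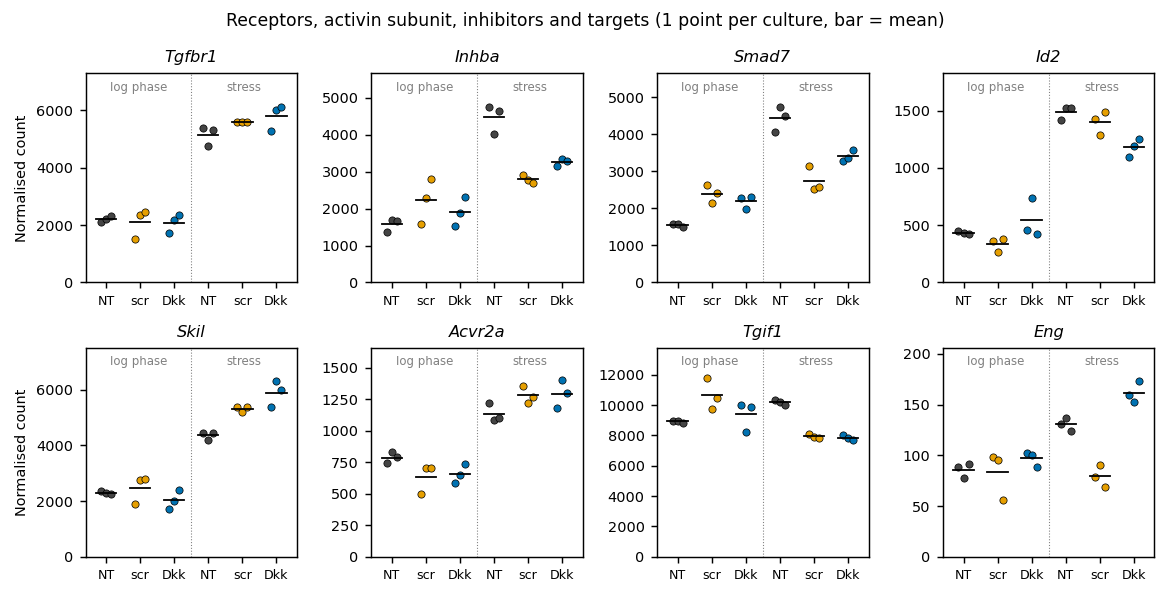
Normalised counts (linear axes from 0) of 8 members, the receptors Tgfbr1, Acvr2a and Eng, the activin subunit Inhba, the inhibitor Smad7, the target Id2 and the repressors Skil and Tgif1, 1 point per culture and a bar at the mean of each group (n = 3), for NT (grey), scrMo (orange) and DkkMo (blue). All 9 stressed cultures exceed all 9 log phase cultures for Tgfbr1, Acvr2a, Id2 and Skil, whereas the highest Eng values, 159, 152 and 173, are the stressed DkkMo cultures.

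Of the target genes, the inhibitors of differentiation Id2 and Id3, which respond to BMP, separated. Id3 had 512, 367 and 450.2 counts in log phase NT, 277, 215 and 208 with scrMo and 629.8, 1438 and 469.9 with DkkMo. Under stress it had 219, 247 and 205, 360.3, 311 and 283 and 230.3, 241 and 243. Every log phase DkkMo culture exceeded every scrMo culture, by 1.12 ± 0.19 (adjusted p = 0.000254) or 3.62-fold in normalised counts. Replicate 2 of log phase DkkMo was the highest of all 18 cultures, and without it the difference was 0.76. Log phase scrMo cultures differed from NT by -0.55. That call was lost without NT replicate 1 or 3 or scrMo replicate 2 or 3 (-0.54 to -0.48). Log phase DkkMo cultures were not called higher than NT. Under stress every DkkMo value lay below every scrMo value, but the difference did not pass the threshold (-0.23 ± 0.19, adjusted p = 0.423), and the interaction term was -1.35 ± 0.26 (adjusted p = 0.00123). With stress Id3 changed by -0.58 ± 0.19 in NT (adjusted p = 0.0106) and -1.10 ± 0.19 with DkkMo (adjusted p = 3.93e-05), and the scrMo cultures differed by 0.25 ± 0.19 (adjusted p = 0.261).

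Id2 had 447, 428 and 421 counts in log phase NT, 363, 267 and 379.9 with scrMo and 460.2, 739.9 and 427 with DkkMo. Stressed cultures had 1422, 1526 and 1521, 1432, 1289 and 1493 and 1098, 1189 and 1257, all above the highest log phase culture. Id2 rose with stress by 1.35 ± 0.11 in NT (adjusted p = 1.25e-09), 1.51 ± 0.11 with scrMo (adjusted p = 7.02e-10) and 0.87 ± 0.11 with DkkMo (adjusted p = 5.9e-07). In log phase DkkMo cultures exceeded scrMo cultures by 0.43 ± 0.11 (adjusted p = 0.00564), and here too replicate 2 was the highest. Without it the difference was 0.26 (adjusted p = 0.0316). The response of Id2 to DkkMo was more negative under stress, with an interaction of -0.64 ± 0.15 (adjusted p = 0.00461).

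Skil, which encodes the SMAD co-repressor SnoN, had 2362, 2296 and 2239 counts in log phase NT, 1911, 2763 and 2780.4 with scrMo and 1699, 1997 and 2395 with DkkMo. Under stress the counts were 4452, 4198 and 4464, 5388, 5208 and 5367 and 5379, 6306 and 5990.4. All stressed cultures were higher, by 0.85 ± 0.11 in NT (adjusted p = 8.54e-07), 1.03 ± 0.11 with scrMo (adjusted p = 1.16e-07) and 1.43 ± 0.11 with DkkMo (adjusted p = 8.14e-10). Stressed DkkMo cultures exceeded stressed NT by 0.41 ± 0.11 (adjusted p = 0.00496). Tgif1, a second repressor, ranged from 7694 to 11792 counts. It rose with stress in NT (0.19) and fell with scrMo (-0.41) and DkkMo (-0.25). The NT call of Tgif1 was lost without log phase NT replicate 3 or stress NT replicates 1 or 2 (0.17 to 0.18).

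Tgfbi, whose product was named for its induction by TGF-beta, was lower with either morpholino in both conditions. Log phase counts were 6952, 8859.9 and 10049 in NT, 4785, 4566 and 5152 with scrMo and 3872, 5396 and 3607 with DkkMo. Stressed counts were 1418, 1306 and 1232, 556, 604 and 584 and 525, 503 and 523. Neither morpholino group overlapped with NT in either condition. In log phase and under stress, scrMo cultures differed from NT by -0.78 ± 0.12 (adjusted p = 5.84e-05) and -0.91 ± 0.12 (adjusted p = 4.07e-06), and DkkMo cultures by -0.96 ± 0.12 (adjusted p = 2.93e-05) and -1.03 ± 0.12 (adjusted p = 1.63e-06). DkkMo and scrMo differed from each other by -0.18 ± 0.12 and -0.12 ± 0.12, with adjusted p of 0.287 and 0.524. The fall with stress was 6.54-fold in NT, 8.31-fold with scrMo and 8.3-fold with DkkMo in normalised counts (adjusted p = 1.03e-12, 2.23e-12 and 1.21e-12).

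Of 63 further genes of the pathway, 44 were tested. In log phase 11 of the 44 rose and 6 fell with DkkMo against scrMo (25% and 13.6%, against 14.3% and 9.20% of all genes), and the largest changes were those of Thbs1, which encodes an activator of latent TGF-beta (27927 ± 10300 against 9306 ± 1569 normalised counts, log2 change 1.51 ± 0.16, adjusted p = 3.14e-06, limma), Bmp7 (2136 ± 161 against 4409 ± 360, -0.96 ± 0.07, adjusted p = 9.27e-08) and Emilin1, which restrains TGF-beta processing (3869 ± 1300 against 2376 ± 293, 0.60 ± 0.13, adjusted p = 0.00234). Without log phase DkkMo replicate 2 the changes were 1.23 for Thbs1 and 0.36 for Emilin1. Under stress 6 rose and 9 fell (13.6% and 20.5%, against 9.97% and 10.9%). Changes ran from -0.43 to 0.77, and the 1 that passed 1.5-fold on the deposited scale was a rise. Those that fell included Gdf15 (-0.43 ± 0.13, adjusted p = 0.0194, limma) and Msx2, a BMP target (-0.38 ± 0.07, adjusted p = 0.000897). With stress in NT cultures 18 rose and 14 fell (40.9% and 31.8%, against 31.5% and 34.1%), led by Fbn1, the microfibril protein to which latent binding proteins attach (-1.58 ± 0.08, adjusted p = 2.36e-12), the BMP regulator Bmper (-1.56 ± 0.06, adjusted p = 1.63e-13) and Bmp7 (1.28 ± 0.07, adjusted p = 7.23e-12). In the same 3 comparisons the median change of the 44 was 0.04, 0.00772 and 0.07. With scrMo against NT, 10 rose and 12 fell in log phase (22.7% and 27.3%, against 11.8% and 14.6%), and 9 rose and 16 fell under stress (20.5% and 36.4%, against 22.1% and 24.7%). With DkkMo against NT, 9 rose and 4 fell in log phase (20.5% and 9.09%, against 5.36% and 4.46%), and 6 rose and 11 fell under stress (13.6% and 25%, against 19.0% and 22.7%).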

How the data were processed

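Poly(A)-selected RNA from 18 cultures of MOSJ-Dkk-1 cells (6 groups of 3) was sequenced by the authors on an Illumina NovaSeq system. The submitters' notes name HISAT2 2.1.0, SAMtools 1.9, featureCounts of Subread 2.0.0, StringTie and DESeq2 on GRCm38. The authors deposited variance-stabilised log2 values, made from counts divided by a size factor per library. A gene without reads has the value 7.2, and small counts are compressed. Strand use and the handling of reads with several matches are not given in the sources used here.

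The transformation was reversed to normalised counts, and all values gave whole reads within 0.05. Of the genes, 14 whose values spanned over 6 within a group were set aside (among them Junb of the further pathway genes), and none was removed for lying above the floor in fewer than 3 libraries. The test was that of limma 3.58.1 (R 4.3.3) on the log2 values, tested on simulated data, with 1 mean per group, all 18 libraries in 1 model and a variance trend. Adjusted p values are Benjamini-Hochberg over 16562 genes in each of 10 contrasts, with a threshold of 0.05, and changes over 1.5-fold are 0.585 on the deposited scale. An exact permutation test of 3 against 3 cannot go below 0.1. DESeq2 was not run here, since the deposited unit is log2, and of tools for counts only voom was used, as an alternative. Values per culture are given for members past both thresholds in any contrast and 8 more in order of role, the others by range. Of the further pathway genes, up to 3 of the largest calls are named in 3 contrasts. The members, gene lists and tests were chosen with earlier results of these data known. Alternatives were other filters, scalings, scales, models and weights, voom on the recovered reads, the replicate number as a block, and each library left out. Exon lengths and overlaps are from GENCODE on GRCm38, and promoters from RefSeq. Tables and figures used Python 3.11.15, NumPy 2.4.6, pandas 2.3.3 and Matplotlib 3.10.9. The tumours of the series were not analysed here.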

Additional observations from a re-analysis of the deposited data

Results flagged for a closer look

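The response to DkkMo, as the log2 difference from scrMo, was tested for a difference between the 2 culture conditions with the interaction term of the limma model, and 13 of the 36 members passed at an adjusted p below 0.05. Given as the response under nutritional stress minus that in log phase, it was more negative for 10. Among the extracellular proteins these were Ltbp2 (-1.19, adjusted p = 0.00213), Fstl1 (-0.87, adjusted p = 6.8e-05) and Ltbp4 (-0.76, adjusted p = 0.000261). Among receptors and ligands they were Tgfbr3 (-0.45, adjusted p = 0.00917), Tgfb3 (-0.30, adjusted p = 0.0412), Tgfbr2 (-0.29, adjusted p = 0.00953) and Bmp4 (-0.27, adjusted p = 0.00755). Among inhibitors and targets they were Id3 (-1.35, adjusted p = 0.00123), Smad6 (-0.84, adjusted p = 6.6e-05) and Id2 (-0.64, adjusted p = 0.00461). The difference was positive for Smad7 (0.40, adjusted p = 0.0153), Eng (0.33, adjusted p = 0.0115) and Smad1 (0.26, adjusted p = 0.00765). The Tgfb3 call was lost without log phase DkkMo replicate 2 (-0.20), any 1 log phase scrMo library, any 1 stressed DkkMo library, or stressed scrMo replicate 1 or 3 (the others from -0.31 to -0.27), and the Smad7 call without stressed scrMo replicate 2 (0.35). The same term was called negative for 13 of 15 cell cycle genes (median -0.56) and 8 of 9 interferon-stimulated genes (median -0.76), and the part of these in the members' values was not tested.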

How the results depend on the processing

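Counts of called members in DkkMo against scrMo depended most on the model. In log phase (15 members) 9 passed among genes above the median gene and 5 with only the compared groups in the model. Under nutritional stress (6) 14 passed with only the compared groups, 11 with array weights and 14 with the replicate block. Against NT, DkkMo gave 5 in log phase (8) and 22 under stress (14) with only the compared groups, and 22 under stress with array weights. With each library left out in turn, counts ran from 10 to 18 and 2 to 6 for DkkMo against scrMo, 16 to 22 and 15 to 17 for scrMo against NT, 6 to 9 and 11 to 13 for DkkMo against NT (log phase, then stress), 24 to 27, 21 to 27 and 29 to 30 for stress against log phase (NT, scrMo, DkkMo), and 12 to 17 for the interaction. The cause was not tested.

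For the 62 changes over 1.5-fold, 715 of 716 values under other settings and all 408 with a library left out kept their direction and call, and none reversed. The exception was Ltbp2 in log phase DkkMo against scrMo with the replicate block (0.94, adjusted p = 0.0568). Libraries of the same number did not deviate together in every pair (correlations from -0.0487 to 0.624 in log phase and from -0.0586 to 0.00516 under stress between DkkMo and scrMo), so that the numbers were not taken as pairs. No paired analysis was possible because of a repeated number for comparisons with stressed NT cultures. Depth limits Tgfb2, Bmp4, Fst and stressed Bmp2, read at few counts.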
